A study of Mus musculus with 4 samples.

Results

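The genes described here are 32 genes used to recognise spermatogonia, the mitotic germ cells at the base of the seminiferous tubule, from stem cells to cells about to enter meiosis. They were chosen by name, with earlier results of these data known. A probe set belonged to a gene when the platform annotation gave that gene as its only symbol, and the probe set with the highest mean signal led. Of the 32 genes, 30 had a probe set, and 68 of the 45037 mouse probe sets belonged to them. Nanos2 and Nanos3, RNA-binding regulators of male germ cells, had no probe set under their names and were not analysed here. The study hybridised whole-testis RNA of C57BL/6J males aged 8 weeks to 4 Affymetrix arrays. Each genotype, wild type and Taf7l knockout, had 2 arrays, and per the series design the animals were littermates. How the Taf7l allele was made was not known here. No drug or other treatment is named for either genotype. Taf7l, a gene of the X chromosome active in germ cells, encodes a relative of a subunit of TFIID, the complex that binds core promoters.

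Spermatogonial stem cells divide on the tubule wall and depend on GDNF, a Sertoli cell ligand that acts through the receptor pair GFRA1 and RET. Their descendants switch on the receptor tyrosine kinase KIT under the SOHLH1 and SOHLH2 transcription factors, and retinoic acid then induces Stra8 and entry into meiosis. In an adult testis these cells are a small minority beside spermatocytes and spermatids, so transcripts found only in them are diluted in RNA of the whole organ. Fewer cells of a type and less RNA per cell cannot be told apart in such RNA.

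Taf7l was checked first. Its signal (linear units) was 829 and 818 in wild type and 80.6 and 72.5 in knockout testes, with no overlap. The mean fell 10.8-fold (log2 difference −3.43, SE 0.097, limma adjusted p = 0.0033), and the log2 difference stayed between −3.50 and −3.35 when any 1 array was left out. Those fits, with 1 array in an arm, called no probe set in the table, Taf7l included (adjusted p from 0.057 to 0.353). Where the Taf7l probes lie relative to the deleted sequence was not known. The tissue label was borne out by 12 of 12 spermatid markers above the signal filter, with the transition protein gene Tnp1 between 81319 and 95304. For the actin control the 3′ end probes exceeded the 5′ end probes, a measure of RNA integrity, by ratios of 2.09 and 1.999 on wild type and 2.42 and 2.18 on knockout arrays. The same ratio for the Gapdh control went the other way, at 1.041 and 0.990 on wild type and 0.927 and 0.938 on knockout arrays, and the part of RNA integrity in any difference below was not tested. Wild type replicate 2 stood apart at markers of epididymis and fat, where the summed signal of 15 epithelial, epididymal and adipocyte markers was 4770 against 1597 on wild type replicate 1, 1919 on knockout replicate 1 and 2504 on knockout replicate 2. Title and description disagree on the replicate number of that last array. Whether its RNA came from a separate animal is therefore not known, and p-values measure the spread between arrays, which may be technical.

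No spermatogonial gene was called different between the genotypes. Differences were tested with limma over the 22519 probe sets whose mean signal reached 45.8, the median over all mouse probe sets, and a call needed a Benjamini-Hochberg adjusted p under 0.05. Of the 30 genes with a probe set, 18 had a leading probe set above that level and 12 did not. At those 18, 0 were called, where 1.39% of all probe sets tested were called, and 4 had an unadjusted p under 0.05, which 24.7% of all probe sets reached. The closest to a call were Sohlh2, higher in the knockout, Id4, lower, and Dnmt3l, higher, with adjusted p of 0.059, 0.066 and 0.081. At an adjusted p under 0.10 these 3 would be called, as would 11.7% of all probe sets tested. With 1 probe set per gene in the fit, Sohlh2 and Id4 passed (6.58% of genes did), with the mean of a gene's probe sets only Sohlh2 (7.88%), and with a filter at the 75th percentile Id4 and Dnmt3l (21.1%), where Sohlh2 was not tested. Over the 18 genes the log2 difference (knockout minus wild type throughout) ran from −0.41 to 0.78 with a median of 0.02, against a median of −0.05 over all probe sets tested, and 10 of 18 lay above 0, against 40.0% of all probe sets. The 95% interval of the difference lay within 1.5-fold in either direction for 13 of the 18 genes and within 2-fold for 16. Precision is limited by the small number of arrays, and an exact permutation test of 2 arrays against 2 cannot go below p = 0.333.

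**Figure D1:**
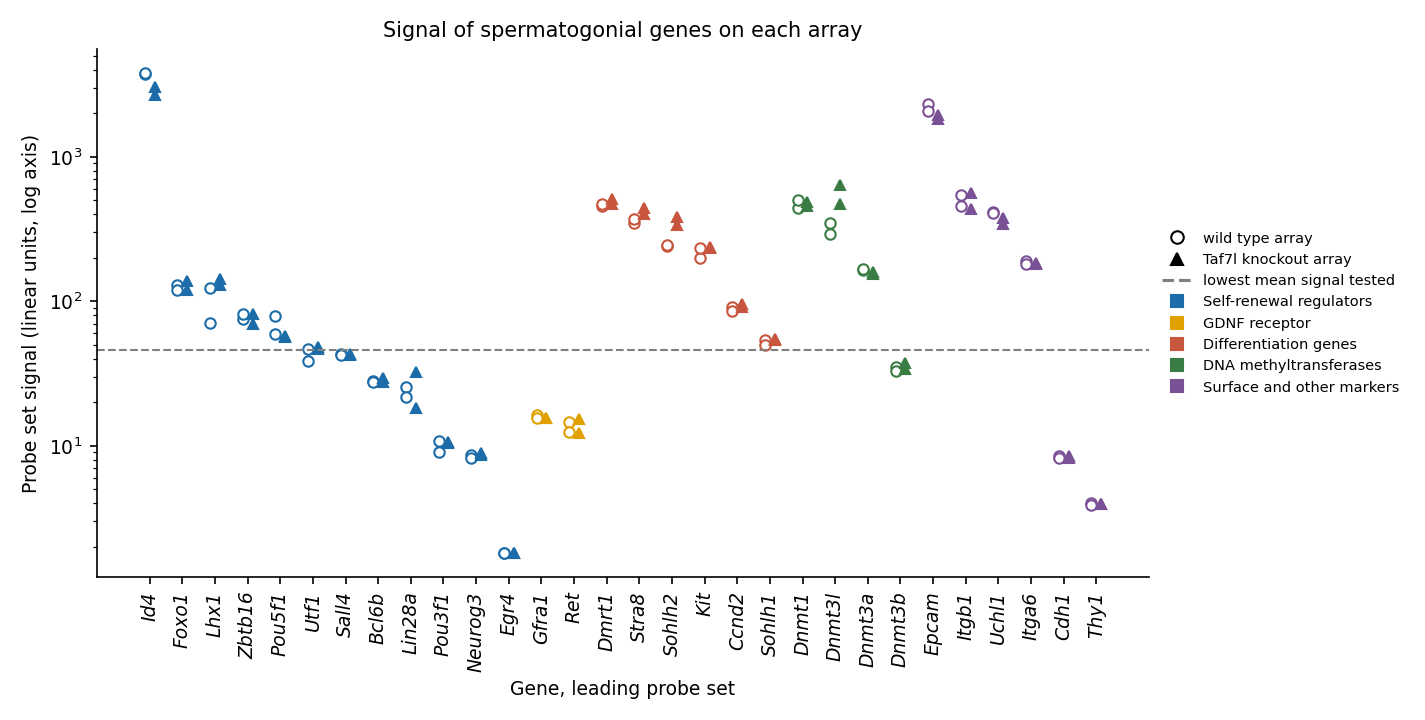
Signal of the leading probe set of 30 spermatogonial genes (linear units on a log axis) on each wild type array (circles) and each Taf7l knockout array (triangles), coloured by role, with the lowest mean signal tested (45.8) as a dashed line. Circles and triangles separate most clearly at Id4, Sohlh2 and Dnmt3l, and 12 genes have means under the line; heights of different genes are not comparable, since each probe set binds its target differently.

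Among the role groups of the spermatogonial genes, that of differentiation and meiotic entry had every measured leading probe set above 0, against 40.0% of all probe sets tested. All 6 with a probe set (Sohlh2, Stra8, Kit, Sohlh1, Ccnd2 and Dmrt1) lay above the filter, with differences from 0.07 to 0.57 on the log2 scale and a median of 0.10. Dmrt1 was placed in this group although it holds spermatogonia in mitosis, so the group is not uniform in role. None of the 6 passed the test. Their differences stayed above 0 under each scaling, offset and left-out array, while a filter cannot change a difference. With 1 array left out they fell as low as 0.012 for Kit, 0.013 for Sohlh1, 0.018 for Dmrt1 and 0.034 for Ccnd2. The lowest values for Stra8 and Sohlh2 were 0.16 and 0.48. In 4 of the 6 both knockout arrays were above both wild type arrays, a pattern found in 18.7% of all probe sets tested. At their brightest probe set, 2397 of the 12241 genes above the filter showed it. For Ccnd2 and Sohlh1 the separation was marginal, with the lowest knockout against the highest wild type signal at 91.2 against 91.1 and 54.4 against 54.3. Other Ccnd2 probe sets above the filter overlapped in part. Only Sohlh2 and Stra8 were clearly apart. Lying all above 0 was not particular to this group, since the 5 Leydig and the 7 macrophage and T cell markers above the filter did so too.

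Sohlh2 encodes a basic helix-loop-helix transcription factor that pushes spermatogonia towards differentiation. Its signal was 243 and 244 in wild type and 384 and 339 in knockout testes. The wild type arrays were nearly identical, and both knockout arrays were higher. The wild type mean was 244 ± 0.988 and the knockout mean 361 ± 31.5 (SD, n = 2 each), a ratio of 1.48 (log2 0.57, SE 0.099, 95% interval 0.31 to 0.82, limma adjusted p = 0.059). The difference lay above the 95th percentile (0.36) of the 2252 probe sets of like signal. Its partner Sohlh1, which binds the same kind of sites, had 54.3 and 49.5 on wild type and 55.3 and 54.4 on knockout arrays (log2 0.08, 95% interval −0.17 to 0.33, limma adjusted p = 0.68). Sohlh1 was just above the filter. A log2 difference as large as that of Sohlh2 lies outside the interval of Sohlh1, but the difference between the pair was not itself tested.

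Stra8, which retinoic acid induces and which the cell needs to start meiotic prophase, had 346 and 372 on wild type and 440 and 401 on knockout arrays. The groups did not overlap, and the log2 difference of 0.23 (95% interval −0.02 to 0.47) did not pass (limma adjusted p = 0.22). Kit had 199 and 233 on wild type and 233 and 237 on knockout arrays, and the value of wild type replicate 2 and that of knockout replicate 1 were identical. The other Kit probe set had 89.5, 109, 123 and 102 in the same order, with overlap. In mouse, spermatids make a shortened Kit transcript from an internal promoter, and which transcripts the probes read was not known. Dmrt1, a transcription factor that holds spermatogonia in mitosis and is also made by Sertoli cells, had 458 and 474 against 508 and 472. Ccnd2, the cyclin D2 of dividing spermatogonia, had 91.1 and 86.3 against 91.2 and 95.4, and its 5 probe sets above the filter differed by 0.06 to 0.20 on the log2 scale. For Dmrt1 and Ccnd2 the 95% intervals, −0.14 to 0.29 and −0.17 to 0.32, hold 0.

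**Figure D2:**
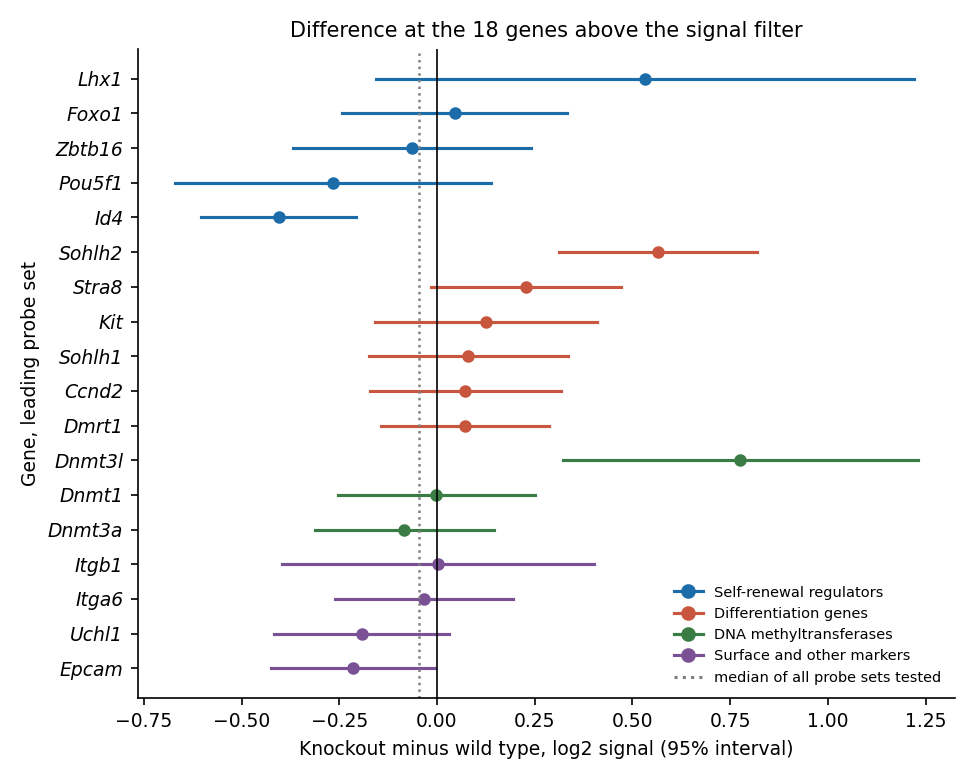
Difference of mean log2 signal, knockout minus wild type, with limma's 95% interval, for the 18 spermatogonial genes above the signal filter, coloured by role, with the median of all probe sets tested (−0.05) as a dotted line. The intervals of Sohlh2, Dnmt3l, Id4 and Epcam do not hold 0, and the 6 genes grouped under differentiation, Dmrt1 among them, all lie to the right of it.

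Among regulators of the undifferentiated state, Id4 had negative differences at every probe set above the filter. Of the 13 genes of this group, 5 lay above the filter, 7 below it, and Nanos2 had no probe set. The 5 differences ran from −0.41 (Id4) to 0.53 (Lhx1) with a median of −0.06, and 0 of 5 were called. Id4 encodes an inhibitor of helix-loop-helix transcription factors and is used to mark the spermatogonia richest in stem cells. Which testis cells gave the Id4 signal was not tested. At its leading probe set the signal was 3743 and 3785 on wild type and 2674 and 3021 on knockout arrays, with both knockout arrays lower. The mean went from 3764 ± 29.9 to 2848 ± 246 (SD, n = 2 each), a log2 difference of −0.41 (SE 0.078, 95% interval −0.60 to −0.21, limma adjusted p = 0.066). The other probe sets gave −0.31 (876 and 922 against 740 and 710) and −0.18 (252 and 253 against 215 and 231), without overlap and without passing. Probe sets as bright as Id4 were lower in general, and its difference lay inside their 5th to 95th percentile range (−0.50 to 0.24). Of 12 spermatid markers, 11 were also below 0, with 0 called.

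Lhx1, a transcription factor gene that GDNF induces in cultured mouse stem spermatogonia, had 71.3 and 125 on wild type and 143 and 130 on knockout arrays. The wild type arrays were 1.75-fold apart, so the log2 difference of 0.53 had an interval from −0.16 to 1.22 (limma adjusted p = 0.30). It was 0.13 without wild type replicate 1 and 0.93 without wild type replicate 2, where it exceeded that of Dnmt3l (0.65). The other Lhx1 probe set lay under the filter, at 7.78 and 6.44 against 6.57 and 6.46. Pou5f1, the pluripotency factor also called Oct4, had 59.2 and 79.2 against 56.8 and 57.1 (log2 −0.27, interval −0.67 to 0.14), and −0.48 without wild type replicate 1 or −0.057 without wild type replicate 2. Zbtb16, the stem cell maintenance factor PLZF, had 75.6 and 82.1 against 69.8 and 81.3, and Foxo1, a target of PI3 kinase signalling, had 130 and 120 against 121 and 137. At Zbtb16 and Foxo1 the genotypes overlapped, with differences of −0.06 and 0.04. Both changed sign when 1 array was left out, to 0.05 for Zbtb16 without knockout replicate 1 and to −0.05 for Foxo1 without knockout replicate 2 and −0.013 without wild type replicate 2.

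Several stem cell and progenitor genes lay under the signal filter in whole testis RNA. Leading signals of 12 genes had means from 1.82 to 44.97, under the filter, and detection calls were not used here. They were both receptor subunits for GDNF, Gfra1 (15.6 to 16.3 over the 4 arrays) and Ret (12.2 to 15.4), and the regulators Sall4, Utf1, Bcl6b, Lin28a, Pou3f1, Neurog3 and Egr4. The surface proteins Thy1 and Cdh1, by which stem cells are sorted, and the methyltransferase Dnmt3b (33.0 to 37.6) completed the 12. Mean signals were 28.2 for Bcl6b, 24.5 for Lin28a, 10.3 for Pou3f1 and 8.62 for Neurog3, and 3.96 for Thy1 and 8.38 for Cdh1. Egr4 had the same value, 1.82, on all 4 arrays. Just under the filter stood Utf1 (46.5 and 38.6 against 46.8 and 48.0) and Sall4 (43.3 and 42.4 against 42.6 and 43.4), and just above it Sohlh1 and Pou5f1. The 12 genes were left out of the main test. With no filter, 0 of the 30 genes were called, in a fit that called 0 of all 45037 probe sets, Taf7l included. That 0 therefore says nothing about the 12 genes. The 3 genes with an unadjusted p under 0.05 by limma, which 6192 of the 45037 probe sets reached, were Sohlh2, Id4 and Dnmt3l, not any of the 12.

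Dnmt3l had the largest difference of the 18 genes tested, and the other methyltransferase genes showed smaller differences, with probe sets on both sides of 0. DNMT3L has no catalytic activity and stimulates the de novo methyltransferases DNMT3A and DNMT3B, and in mouse it is needed to methylate retrotransposons in fetal male germ cells. Its only probe set had 350 and 294 on wild type and 471 and 643 on knockout arrays, with both knockout arrays higher but 1.37-fold apart from each other. The wild type mean was 322 ± 39.6 and the knockout mean 557 ± 122 (SD, n = 2 each), a ratio of 1.71 (log2 0.78, SE 0.18, 95% interval 0.32 to 1.23, limma adjusted p = 0.081). Leaving out each array in turn gave log2 differences from 0.55 to 1.001. The name of the probe set ends in _s_at, Affymetrix's mark for probes shared by several transcripts. Dnmt1, the maintenance methyltransferase, had 444 and 502 against 488 and 455 (log2 −0.0019, interval −0.25 to 0.25). Dnmt3a had 164 and 167 against 154 and 158 (log2 −0.08, interval −0.31 to 0.15), while its other 2 probe sets above the filter lay on the other side of 0, at 0.06 and 0.13, and the mean of its probe sets was 0.03.

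Markers used to enrich spermatogonia were mixed, and 0 of the 4 above the filter were called. Epcam, an adhesion molecule of spermatogonia and of epithelia, had 2303 and 2076 on wild type and 1954 and 1817 on knockout arrays at its leading probe set. That difference was −0.21 on the log2 scale (interval −0.42 to −0.0042, limma adjusted p = 0.20), but −0.09 after quantile normalization and −0.14 without wild type replicate 1. The dimmer Epcam probe set went the other way, at 279 and 261 against 311 and 293 (0.16), and the mean of both was −0.03. Uchl1, a deubiquitinase abundant in spermatogonia, had 414 and 409 against 376 and 345 (log2 −0.19, interval −0.42 to 0.03, limma adjusted p = 0.26). The laminin receptor genes Itga6 (190 and 183 against 181 and 184) and Itgb1 (457 and 540 against 438 and 566) overlapped between genotypes at their leading probe sets. The other Itga6 probe set above the filter did not overlap, at 129 and 122 against 120 and 110 (log2 −0.13, limma adjusted p = 0.48), and that of Itgb1 did (358 and 362 against 349 and 361). Many other testis cells also make Itgb1.

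**Figure D3:**
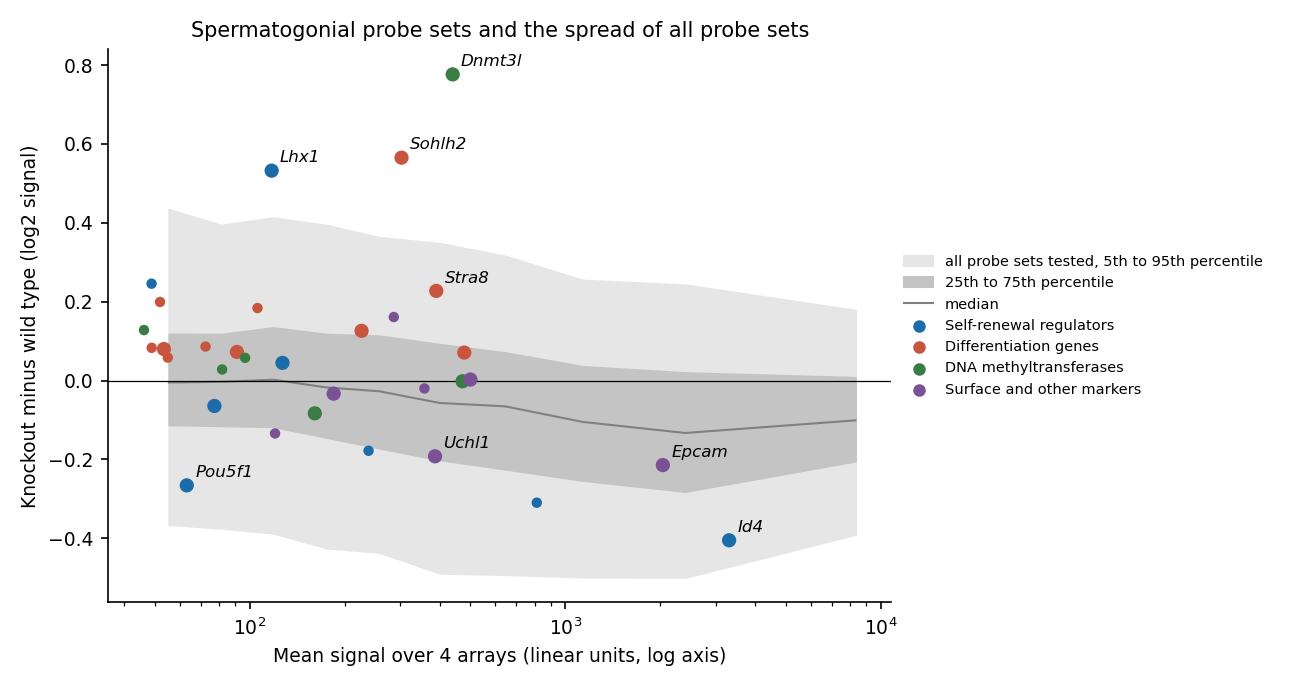
Knockout minus wild type log2 difference against mean signal over 4 arrays (log axis) for the 32 probe sets of spermatogonial genes above the filter, large points for leading probe sets, over the 5th to 95th and 25th to 75th percentile bands of all probe sets tested in 10 classes of equal number by signal. Dnmt3l, Sohlh2 and Lhx1 lie above the 95th percentile of their class, Id4 lies inside its band, and bright probe sets tend to be lower in the knockout.

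Across the 18 genes the groups did not overlap in 11, of which 6 were higher and 5 lower in the knockout. The share among all probe sets tested was 55.0%, with 18.7% higher and 36.3% lower. Taken like the 18, at the brightest probe set of each of 12241 genes, it was 58.3% (2397 higher and 4743 lower). Separation of 2 arrays from 2 is therefore common here. Counted against the 5th and 95th percentiles of probe sets of like signal, 3 genes were above, 0 below and 15 between. In the 32 probe sets above the filter that belong to these genes, 3 carried a value that was identical on 2 arrays. Such identical values occur throughout the table, at 2385 probe sets for wild type replicate 2 with knockout replicate 2 and at 228 to 620 for other pairs. How they arose was not tested.

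Since TAF7L is related to a core promoter factor, the start regions of the 3 genes nearest to a call are shown, from RefSeq on GRCm38.p6, 250 bases before to 50 after each start. Capitals mark a match to GGGCGG, known as the GC box, to the CCAAT box, to TATAAA as the core of the TATA box, or to AGGTCA as the element that nuclear receptors bind. Both strands were searched, so capitals can spell the reverse complement of a motif. None of the 4 motifs contains another. Sohlh2 lies at chr3:55181794-55182093, Id4 at chr13:48260866-48261165, and the Dnmt3l starts at chr10:78042037-78042336, chr10:78049592-78049891 and chr10:78055085-78055384, all on the + strand.
Sohlh2: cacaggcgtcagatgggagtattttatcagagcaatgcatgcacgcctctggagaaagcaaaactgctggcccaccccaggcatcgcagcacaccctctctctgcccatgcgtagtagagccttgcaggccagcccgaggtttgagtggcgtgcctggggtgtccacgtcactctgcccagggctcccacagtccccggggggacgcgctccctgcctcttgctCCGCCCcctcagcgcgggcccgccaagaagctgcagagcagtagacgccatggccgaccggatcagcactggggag
Id4: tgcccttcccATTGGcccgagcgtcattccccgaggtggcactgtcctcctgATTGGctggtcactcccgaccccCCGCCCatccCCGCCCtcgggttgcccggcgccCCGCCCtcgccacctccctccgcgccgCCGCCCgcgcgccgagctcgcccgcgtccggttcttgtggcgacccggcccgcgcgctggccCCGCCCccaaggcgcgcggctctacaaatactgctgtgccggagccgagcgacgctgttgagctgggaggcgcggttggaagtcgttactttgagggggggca
Dnmt3l, upstream start: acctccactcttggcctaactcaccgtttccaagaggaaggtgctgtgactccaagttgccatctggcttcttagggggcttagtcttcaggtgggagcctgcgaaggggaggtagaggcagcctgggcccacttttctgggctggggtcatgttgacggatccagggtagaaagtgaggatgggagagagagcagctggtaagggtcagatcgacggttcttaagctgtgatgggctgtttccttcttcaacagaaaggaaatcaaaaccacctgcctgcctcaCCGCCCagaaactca
Dnmt3l, middle start: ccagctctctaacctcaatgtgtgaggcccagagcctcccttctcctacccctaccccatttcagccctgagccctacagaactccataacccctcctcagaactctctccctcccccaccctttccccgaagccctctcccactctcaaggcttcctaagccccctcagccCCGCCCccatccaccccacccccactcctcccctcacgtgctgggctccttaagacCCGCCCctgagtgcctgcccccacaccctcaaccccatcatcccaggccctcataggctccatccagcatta
Dnmt3l, downstream start: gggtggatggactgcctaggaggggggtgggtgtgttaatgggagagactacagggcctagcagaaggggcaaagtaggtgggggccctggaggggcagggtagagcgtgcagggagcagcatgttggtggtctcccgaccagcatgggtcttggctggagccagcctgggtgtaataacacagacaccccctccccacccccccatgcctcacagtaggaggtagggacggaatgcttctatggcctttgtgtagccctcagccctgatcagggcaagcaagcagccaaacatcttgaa
The Id4 window held 39 CpG dinucleotides, 5 GC boxes and 2 CCAAT matches, and the Sohlh2 window 17 CpGs and 1 GC box that began 26 bases before the start. The 3 Dnmt3l windows held 6, 4 and 3 CpGs, and the array does not tell which start its signal came from. None of these windows held TATAAA.

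Of the 32 genes, 22 had a promoter window, taking the first listed for each. TATAAA was found in 1 of the 22, that of Nanos2, against 7.40% of the 9959 genes above the filter with a window and 14.2% of all 27025 genes with one. The 22 include genes under the filter or with no probe set, so both shares are given. GGGCGG stood in 14 of the 22 (60.8% of the 9959 and 35.9% of the 27025), CCAAT in 9 (39.2% and 37.9%) and AGGTCA in 4 (13.2% of the 9959 and 4335 of the 27025 genes), Stra8, Sohlh1, Pou5f1 and Nanos2. The median CpG count was 15.5 in the 22 windows and 20.0 in the 9959. These matches describe the letters of the windows only.

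Genes around the spermatogonial programme, from lists written with general knowledge, held no call either. Beside these and the later lists stand the shares over all probe sets tested, 1.39% called and 40.0% above 0. At that share, 0 calls in a short list says little about its genes. Of 21 further spermatogonial genes above the filter, 0 were called, with 12 above 0 and 9 below (median log2 0.01). Nearest were Plk1, a mitotic and meiotic kinase (1303 and 1261 on wild type, 947 and 909 on knockout arrays, limma adjusted p = 0.051), and Dazl, a germ cell RNA-binding protein (7485 and 6920 against 8819 and 9114, limma adjusted p = 0.067). Tex101, a germ cell surface protein, had 5135 and 4915 against 5985 and 6488. These 3 are not particular to spermatogonia, since spermatocytes make each of them.

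Ligands and partners of the GDNF and KIT receptors gave 0 calls among 19 genes (10 above 0, median 0.02). The activin and inhibin subunit gene Inhbb had 339 and 349 against 278 and 304, and Nrtn, a ligand related to GDNF, had 203 and 160 against 213 and 213. The retinoic acid and meiotic entry list gave 0 calls among 13 (4 above 0, median −0.04). Its smallest p was that of the retinoid receptor gene Rxra, at 287 and 296 on wild type and 164 and 221 on knockout arrays (log2 −0.62, limma adjusted p = 0.097). The meiotic cohesin gene Rec8, induced by retinoic acid as Stra8 is, had 713 and 665 against 551 and 615, on the other side of 0 from Stra8.

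Partners and readers of DNA methylation gave 0 calls among 10 genes, with 4 above 0 and a median of −0.11. Mbd2, a reader of methylated CpGs, had 2436 and 2551 on wild type and 1671 and 1962 on knockout arrays (log2 −0.46, limma adjusted p = 0.071). Uhrf1, which brings DNMT1 to replicating DNA, had 2398 and 2568 against 1741 and 1988 (log2 −0.42, limma adjusted p = 0.074). Both were lower on both knockout arrays, while Dnmt1 overlapped.

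**Figure D4:**
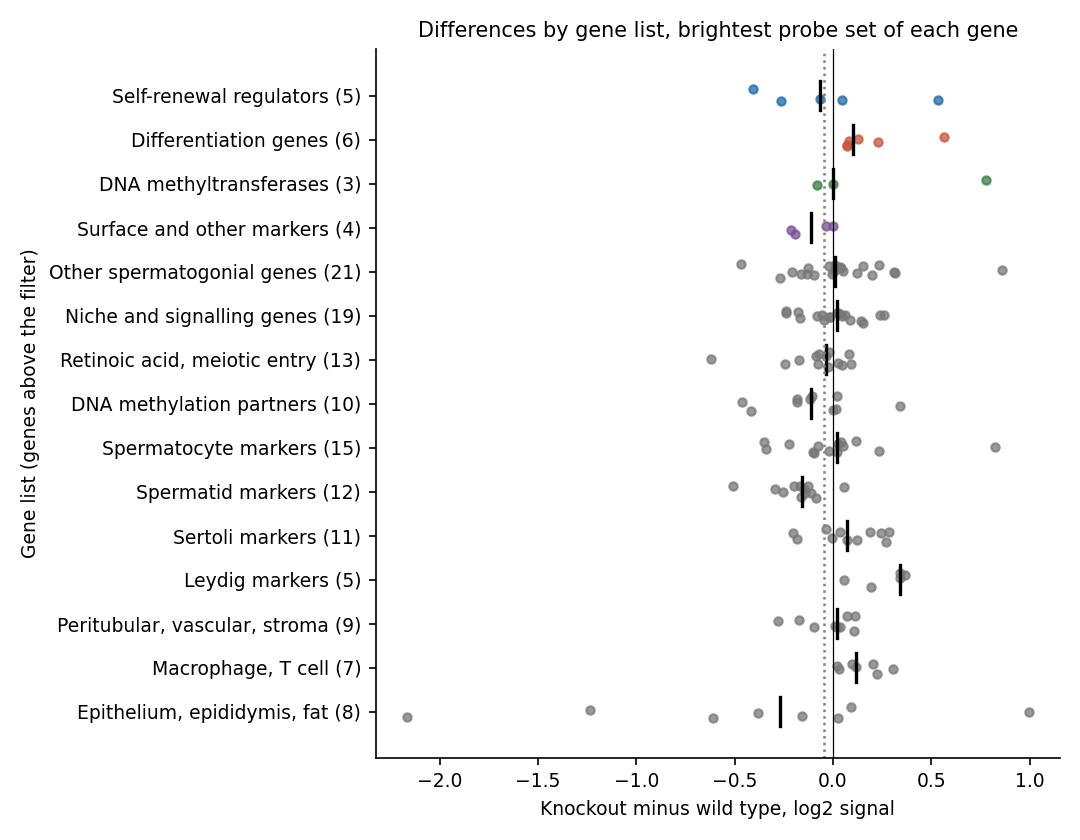
Knockout minus wild type log2 difference of each gene above the filter at its brightest probe set, by list, with the list's median as a black bar and the number of genes in brackets; coloured points are the spermatogonial genes and the dotted line is the median of all probe sets tested (−0.05). Genes grouped under differentiation, Dmrt1 among them, lie to the right of 0, spermatid markers mostly to the left (median −0.16) and Leydig markers to the right (median 0.34).

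Among markers of other cell types, Cyp17a1 of Leydig cells and the keratin gene Krt8 passed the test. Of 12 spermatid markers, 11 were below 0 (median −0.16, 0 called), and their summed signal was 465644 and 480065 on wild type and 432408 and 442526 on knockout arrays. Spermatocyte markers were split, 8 of 15 above 0 (median 0.02, 0 called), with sums of 195294 and 198040 against 187177 and 191695 and the heat shock gene Hspa2 at 18156 and 17711 against 13748 and 14418 (limma adjusted p = 0.051). Of 11 Sertoli markers above the filter, 7 were above 0 (median 0.07, 0 called), with sums over 13 markers of 54543 and 57775 against 64663 and 67882, while Amh and Fshr were under the filter. All 5 Leydig markers were above 0 (median 0.34), with sums of 16431 and 16641 against 20460 and 20906, and Cyp17a1, a steroidogenic enzyme, rose 1.26-fold (limma adjusted p = 0.0496). Such sums are carried by the brightest probe sets and do not weigh the markers of a list equally. Clu (35026 and 32203 against 43413 and 37656) made most of the Sertoli sum. Cyp17a1 (12131 and 11852 against 15226 and 15105) made most of the Leydig sum. All 7 macrophage and T cell markers above the filter were above 0 (median 0.12, 0 called), with sums over 13 markers of 2544 and 2639 against 2755 and 3114. The T cell gene Cd8a was among the 7, while Cd3e, Cd3g, Cd4 and Cd2 of T cells, the macrophage gene Cd68 and the leukocyte gene Ptprc were under the filter. Krt8, a keratin, was called higher (230 and 281 against 529 and 484, limma adjusted p = 0.048) among 8 epithelial, epididymal and fat markers, of which 3 were above 0. Peritubular, vascular and stromal markers gave 0 calls among 9, with 6 above 0 (median 0.02) and sums over 15 markers of 4712 and 4960 against 4896 and 4925. Differences of Sohlh2, Dnmt3l and Id4 thus stand beside the list medians given here, and the part of cell makeup in them was not tested.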

How the data were processed

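The deposited table gives a linear intensity (probe set signal) per array for 45037 mouse and 64 control probe sets. The authors used MAS5, per the submitters' processing notes, with no version or scaling target given, and the normalization between arrays is not settled. Median signals were 45.2 to 45.7. Gene names come from the platform annotation, brought up to date with RefSeq gene IDs (assembly GRCm38.p6). A single symbol was given for 34945 probe sets and several for 932, while 9160 had none, and 34754 matched a RefSeq gene. No genome build is named for the probe sets.

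The log2 of each signal was used with no offset or further normalization, filtered at a mean of 45.8, and fitted with limma 3.58.1 in R 4.3.3 (lmFit, eBayes with a variance trend, genotype as the only term, two-sided, Benjamini-Hochberg over 22519 probe sets). The fit had 2 residual and 3.17 prior degrees of freedom. On data simulated with the variances of this comparison (22519 probe sets) the fit called 5.6% of planted log2 changes of size 0.5, 65.6% at size 1 and 97.0% at size 2. Changes were planted in a small part of the probe sets, and the share called depends on that part, so these shares may differ in the real data. A fold is 2 to the power of the log2 difference.

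The genes and the lists were chosen with earlier results of these data known, and lists are described by counts, with no set test. Every spermatogonial gene was named. Of the other lists, called genes and up to 3 with the smallest p were candidates for naming, and other genes named there (Amh, Fshr, Cd8a, Cd3e, Cd3g, Cd4, Cd2, Cd68 and Ptprc) were chosen after their values were seen. The replicate numbers were not taken to pair the arrays. Alternatives were other scaling, offset, filters, priors, probe set choices, a replicate block and leaving out each array. Figures were drawn with matplotlib 3.10.9.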

Additional observations from a re-analysis of the deposited data

How the results depend on the processing

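Under the alternatives tried, no spermatogonial gene was called except in these settings: Id4 and Dnmt3l with a 75th percentile filter (2 of the 8 genes then tested, limma adjusted p = 0.015 each, where 21.1% of all probe sets were called and Sohlh2 fell under the filter), Sohlh2 and Id4 with 1 probe set per gene (2 of 18, 0.041 and 0.046, against 6.58%), Sohlh2 with the mean of a gene's probe sets (1 of 18, 0.033, against 7.88%), and 3 at an adjusted p under 0.10. Dnmt3l has no single-transcript probe set. With any 1 array left out, 0 of 18 were called, and 3 to 4 had an unadjusted p under 0.05 by limma. Differences of Sohlh2 stayed between 0.48 and 0.65, of Id4 between −0.49 and −0.27 and of Dnmt3l between 0.55 and 1.001. The median over the genes stayed between −0.0025 and 0.068.

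All probe sets called numbered 312 (32.1% higher), and 148 after quantile normalization (61.5% higher), 646 after median centring (22.8% higher), 0 with no filter (6192 at an unadjusted p under 0.05 by limma), 2375 above the 75th percentile, 36 when eBayes had no trend, 541 with the replicate block, 179 with single-transcript probe sets, 806 with 1 probe set per gene and 2628 at an adjusted p under 0.10. Without any 1 array limma called 0 (3084 to 5500 at an unadjusted p under 0.05). Taf7l was not called with no filter (adjusted p = 0.065).

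Of 290 values of single genes under alternatives, those of Taf7l included, 12 changed sign, all at genes under 0.1 apart. Many of the 290 could not change sign. Other filters, priors, the replicate block, 1 probe set per gene and the adjusted p threshold leave a gene's difference as it was. The same holds for probe set choice where a gene has only 1 eligible probe set. The 12 are therefore no measure of how stable the signs are. With the mean of a gene's probe sets, which was chosen for single genes after seeing the data, Dnmt1 was 0.013, Dnmt3a 0.034 and Itgb1 −0.0087. Dnmt1 was 0.068 after quantile normalization and −0.090 to 0.086 with 1 array left out, Itgb1 −0.0070 after median centring and −0.18 to 0.19 with 1 array left out, Foxo1 −0.049 to 0.14 and Zbtb16 −0.17 to 0.046. The cause was not tested. The replicate block changed no call of these genes (Sohlh2 and Id4 0.059, Dnmt3l 0.073), and deviations of same-numbered arrays correlated at 0.03 over 22519 probe sets, so the numbers were not taken to pair the arrays.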
